A study of Macaca mulatta with 48 samples.

Results

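Elongated spermatids are haploid male germ cells in the last phase of spermiogenesis, and here they were picked out of 12 single-cell libraries of rhesus monkey (Macaca mulatta) testis by their own RNA. A barcode was a member when it had at least 300 genes, at most 30000 unique molecular identifiers (UMIs, each of which marks 1 captured RNA molecule) and at most 3% mitochondrial UMIs, and when PRM1, PRM2 and TNP1 together made up at least 5% of its UMIs. This rule gave 23761 members among 112150 barcodes that passed the cell filter, or 21.2%. The members were thus chosen by the measured levels of PRM1, PRM2 and TNP1, and the levels of these genes below are a description and support nothing.

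The study asked how the testis differs between seasons and with age in a primate that breeds seasonally. The animals were prepubertal (1 year), adult (6 years) or aged (22 years), with 2 animals in each group, and 1 testis of each animal was taken outside the breeding season and the other within it. By the paper's Methods the non-breeding testis was removed in August and the other in December. Every breeding library thus came from an animal that had already lost 1 testis. Season, order of sampling and earlier surgery cannot be told apart here, and the paper lists compensation after the first removal as a limit. The tissue was whole testis digested to single cells, with no sort and no treatment beyond this surgery. Each group and season is represented by 2 libraries from 2 animals. Libraries are called by age group, animal and season.

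In the elongating spermatid the histones of the nucleus are replaced first by transition proteins (TNP1, TNP2) and then by protamines (PRM1, PRM2), which pack the DNA into a compact and silent state. Transcription stops while this happens, so many proteins of the sperm head and tail are made from RNA that was transcribed earlier and stored. Meanwhile the acrosome spreads over the nucleus, the manchette of microtubules shapes the head, the tail grows, and most of the cytoplasm is shed and taken up by Sertoli cells.

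TNP2 and SMCP, the markers that the rule did not use, were high in the members. Levels are given in CPM, the UMIs of a gene relative to all UMIs of the members of a library, scaled to a total of 1000000. TNP2, the second transition protein, reached 15740 ± 1908 CPM (SD, n = 8 adult and aged libraries) against a mean of 922.5 CPM in all other barcodes. SMCP, the cysteine-rich protein of the sperm mitochondrial sheath, reached 4260 ± 727 CPM against 1340 CPM. Markers of spermatocytes, the meiotic cells that precede spermatids, were low. All 11 that reached 10 CPM in members or in the other barcodes were at least 2-fold lower in members, against 43.0% of all such genes. Markers of round spermatids, the stage just before elongation, were not low. Of the 9 at that level 1 was at least 2-fold higher and 2 at least 2-fold lower in members (8.94% and 43.0% of all such genes). The sum of all 10 in the files was 1200 to 2090 CPM in members. In other barcodes it was 1100 to 2070 CPM, apart from 184 CPM in the others of adult animal 1 in the non-breeding season. The other barcodes are a mix. Among them 7 to 2869 per adult or aged library had at least 5 UMIs of round spermatid markers. Against this mix the members stood apart in spermatocyte markers more clearly than in round spermatid markers.

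Some libraries stood apart. That of adult animal 2 from the breeding season was small, with 333 barcodes and 959819 UMIs, whereas the other 11 held 23072680 to 43405583 UMIs. Only 117 of its barcodes passed the filter, its 63 members carried 106381 UMIs in all, and 13 of the 63 shared their barcode with the breeding library of aged animal 1. In aged animal 1 in the non-breeding season the summed level of 6 red blood cell markers was 4290 CPM in members, against 9.4 to 68.6 CPM in members of the other adult and aged libraries. In that library 10 markers of T and natural killer cells summed to 379 CPM in members, against 13.9 to 44.0 CPM in the others. The gene comparisons were also run without these 2 libraries.

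The genes that define these cells lie close together in part. In the Mmul_10 assembly PRM1 (chr20:11246410-11246909), PRM2 (chr20:11240869-11241726) and TNP2 (chr20:11232995-11234513) sit side by side on the minus strand of chromosome 20, while TNP1 (chr12:104246539-104247270) and SMCP (chr1:98189603-98196496) are elsewhere. The 120 bases before the annotated start of each are shown 5′ to 3′ on the gene's own strand, because these 5 genes carry the identity of the cells. They are RefSeq sequence of Mmul_10 from chr20:11246910-11247029 (PRM1), chr20:11241727-11241846 (PRM2), chr12:104247271-104247390 (TNP1), chr20:11234514-11234633 (TNP2) and chr1:98196497-98196616 (SMCP), all on the minus strand. Capitals mark matches, on either strand, to TATAA, the core of a TATA box, within 50 bases of the start, and to TGANNTCA, a relaxed form of the cAMP response element that CREM binds, anywhere in the stretch shown.
PRM1: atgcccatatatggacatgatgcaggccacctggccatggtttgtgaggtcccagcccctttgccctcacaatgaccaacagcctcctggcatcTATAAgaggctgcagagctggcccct
PRM2: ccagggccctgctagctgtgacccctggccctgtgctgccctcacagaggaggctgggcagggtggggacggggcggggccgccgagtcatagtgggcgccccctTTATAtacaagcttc
TNP1: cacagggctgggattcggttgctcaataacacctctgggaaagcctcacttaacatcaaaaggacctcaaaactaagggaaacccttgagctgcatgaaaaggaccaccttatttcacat
TNP2: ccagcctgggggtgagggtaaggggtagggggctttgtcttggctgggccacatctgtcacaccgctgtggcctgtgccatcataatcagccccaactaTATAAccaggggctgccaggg
SMCP: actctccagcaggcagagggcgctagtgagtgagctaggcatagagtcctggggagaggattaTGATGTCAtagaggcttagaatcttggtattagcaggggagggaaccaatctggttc

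TATAA stood 26 bases before the start of PRM1 and 21 before that of TNP2, and on the opposite strand (written TTATA here) 15 bases before that of PRM2. Among 20756 annotated genes, 4.66% had TATAA on either strand within 50 bases of the start, against 4 of the 14 nuclear packaging genes with a window. TGATGTCA stood 57 bases before the start of SMCP. TGANNTCA occurred within 250 bases of the start in 9.35% of genes, and the full element TGACGTCA in 1.47%. The window of TNP1 held neither TATAA within 50 bases nor TGANNTCA.

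The share of UMIs taken by PRM1, PRM2 and TNP1 formed a clear upper group in most libraries, but not a gap at the threshold. The median share in members was 10.62% in the non-breeding library of aged animal 1 and reached 22.54% in the breeding library of adult animal 2. Barcodes just inside and just outside the threshold were common in aged animal 1: in the non-breeding library 542 members (18.5%) had a share of 5% to 6% and 1359 other barcodes had 4% to 5%, and in the breeding library these were 478 members (20.3%) and 731 barcodes. In the other adult and aged libraries 3.11% to 5.94% of the members lay between 5% and 6%, apart from 0 of 63 in the breeding library of adult animal 2. At a threshold of 10%, 53.7% and 58.5% of the members of aged animal 1 (non-breeding and breeding) remained, against 74.2% to 88.9% in the other libraries with members.

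**Figure D1:**
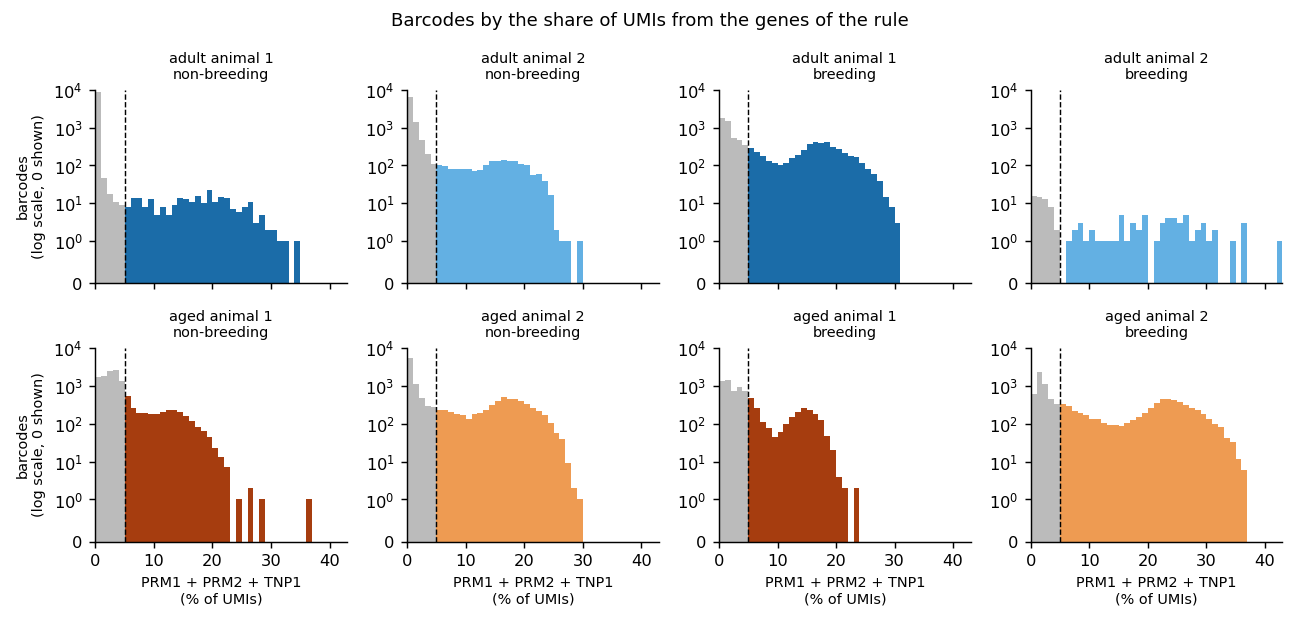
Number of barcodes (log axis with 0 shown) by the percentage of their UMIs from PRM1, PRM2 and TNP1, in steps of 1 percentage point, for the 8 adult and aged libraries. Colour marks members, grey marks other barcodes, and the dashed line is the 5% threshold. Both libraries of aged animal 1 have many barcodes on either side of the line, and the median of the members in these libraries is lower than in the other libraries.

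Barcodes with markers of other cells also passed the rule. Those with at least 3 UMIs from markers of peritubular and smooth muscle cells, which should not make protamines, passed the rule in 0.656% of cases (4 of 610) in adult animal 1 and in 4.79% of cases in adult animal 2 in the non-breeding season. The share was 23.9% in the breeding library of adult animal 1, 14.5% and 19.0% in the non-breeding libraries of aged animals 1 and 2, and 16.3% in the breeding library of aged animal 1. It was 58.3% (126 of 216) in the breeding library of aged animal 2, where these barcodes had a median of 910 UMIs and a median share of 5.68%. These barcodes made up 0.383% to 4.62% of the members of an adult or aged library that had any. None of them passed in the prepubertal libraries. The markers that picked these barcodes were ACTA2, MYH11, TAGLN and DES. A longer list of 8 such markers, these among them, stood at 252 to 451 CPM in sum in members as a whole, against 50.8 to 374 CPM in other barcodes. Whether these barcodes held free RNA, more than 1 cell or marker RNA of the spermatids was not tested.

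The median UMI count of the members per library lay between 1864 and 3573 in the adult and aged libraries other than the breeding library of adult animal 2, where it was 843, and it was 1575 to 3512 in the other barcodes (775.5 in that library). Thinned to 500 UMIs, a member showed a median of 306 to 364 genes, against 416 to 435 in other barcodes, a difference that the rule fixes in part because it gives members a high share of UMIs from only 3 genes.

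PRM1, the protamine of all mammals, was the most abundant transcript of the members in every library. It took 12.4% of their UMIs in adult animal 1 and 10.9% in adult animal 2 in the non-breeding season, and 12.7% and 14.8% in the breeding season. In aged animals it took 8.58% and 10.7% in the non-breeding season and 10.1% and 16.5% in the breeding season. The highest and the lowest value thus both came from aged animals.

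PRM2, the second protamine, was highest in the small library. It took 1.71% and 1.39% of member UMIs in the non-breeding libraries of adult animals 1 and 2, and 1.34% and 5.74% in the breeding season. In aged animals it took 1.82% and 2.16% in the non-breeding season and 1.03% and 0.959% in the breeding season. Outside the small library PRM2 spanned 0.959% to 2.16% and PRM1 8.58% to 16.5%. The ratio of PRM1 to PRM2 UMIs was 7.25 and 7.85 in the adult non-breeding libraries and 9.53 and 2.57 in the adult breeding libraries. It was 4.71 and 4.95 in the aged non-breeding libraries and 9.87 and 17.2 in the aged breeding libraries. Both aged animals had a higher ratio in the breeding season, and among adults animal 1 had a higher and animal 2 a lower one, the last in the small library.

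Within a library the ratio was higher at a higher combined share. This was fixed in part, because PRM1 is the largest part of the share and sorting by it favours PRM1. In adult animal 1 in the non-breeding season the ratio went from 5.73 at 5% to 8% to 7.91 at 20% to 30%. Over steps of the combined share from 5% upward, it moved from 14.7 to 18.7 in the breeding library of aged animal 2, from 4.36 to 5.09 in the non-breeding library of aged animal 1 and from 4.53 to 5.16 in that of aged animal 2. The steps of these libraries did not overlap with those of the 3 adult libraries with more than 1 step, which ran from 5.73 to 10.0, whereas those of aged animal 1 in the breeding season (9.3 to 10.1) did overlap with them. In the other barcodes the ratio was 4.34 and 6.85 in the adult and 4.64 and 3.98 in the aged non-breeding libraries, and 7.1 and 3.58 in the adult and 9.61 and 13.0 in the aged breeding libraries. In members and in the others alike, the breeding libraries of aged animal 2, aged animal 1 and adult animal 1 were highest, in that order, and the small library was lowest. UMIs count molecules and were not scaled to gene length, and PRM1 and PRM2 both helped choose the members, so no test is given.

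**Figure D2:**
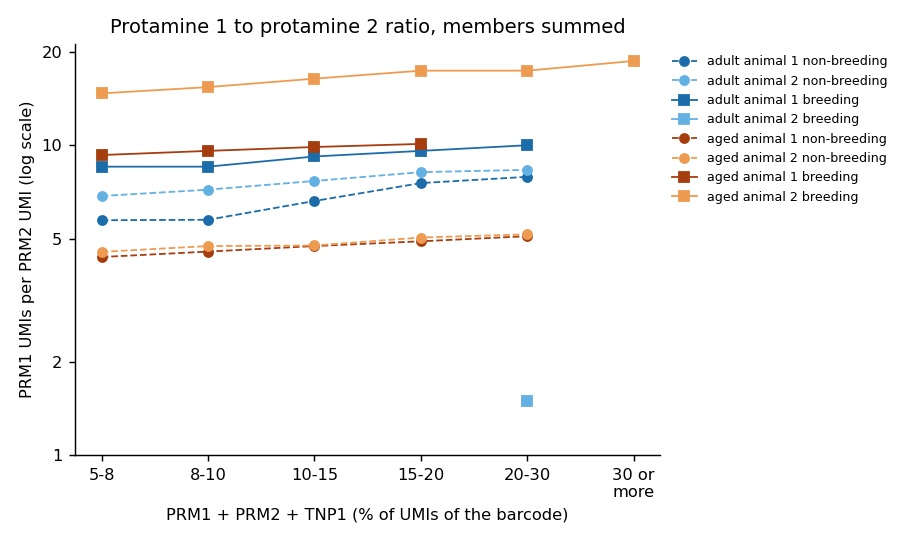
PRM1 UMIs per PRM2 UMI (log axis) in members summed within steps of the combined PRM1, PRM2 and TNP1 share, for each adult and aged library with at least 20 members in the step. Circles with dashed lines are non-breeding and squares with solid lines breeding libraries. The aged non-breeding libraries are lowest among the lines at 4.36 to 5.16, the breeding library of aged animal 2 is highest at 14.7 to 18.7, and the other lines lie between, in part on top of each other.

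TNP1, the first transition protein, took 1.63% and 1.03% of member UMIs in the adult non-breeding libraries, 1.36% and 3.14% in the adult breeding libraries, 0.858% and 1.55% in the aged non-breeding libraries and 1.12% and 1.71% in the aged breeding libraries. TNP2, outside the rule, was steadier at 1.31% to 1.93% over the same 8 libraries. SMCP took 0.318% to 0.561%.

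A few genes dominated these cells. The 20 leading genes of a library took 21.3% to 32.7% of member UMIs, against 6.81% to 9.79% in the other barcodes. This contrast was fixed in part by the rule. With PRM1, PRM2 and TNP1 left out, the 20 leading genes of the 8 adult and aged libraries took 11.5% to 13.6% in members and 6.24% to 8.51% in other barcodes. After PRM1 (120800 ± 25850 CPM, SD, n = 8), the highest mean level was that of HMGB4, a spermatid protein of the high mobility group that binds DNA (27260 ± 7328 CPM). PRM2 (20180 ± 15590 CPM), TNP2 and TNP1 (15490 ± 7100 CPM) followed. The SD of PRM2 was large because of the breeding library of adult animal 2, where it stood at 57400 CPM against 9590 to 21600 CPM in the other libraries.

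Below these 5 genes, levels dropped to under 5000 CPM. Others among the leading 20 were SMCP, FAM229B, MLF1, TSACC, C2H3orf22, PI4K2A (a lipid kinase), ODF2 (an outer dense fibre protein of the tail, 3333 CPM), GSG1, IQCF2, SLC6A17, TPPP2 (a tubulin-binding protein, 3119 CPM), SH3RF2 and ACTRT2 (an actin-related protein of the sperm head, 2931 CPM). Not all were particular to the members: TSACC was 1.14 times the level in other barcodes by the median of the libraries.

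Genes most raised in members over the other barcodes included more than the packaging genes. With 5 CPM added to both, the median ratio over 8 libraries was 18.1 for TNP2 (range 7.73 to 268). It was 13.0 for PRSS58 and 12.2 for PRSS37, which encode testis proteins of the trypsin family, and 10.9 for TEX37. The alpha tubulins TUBA8 (9.53) and TUBA4A (9.44), UBE2J1 (9.33), a ubiquitin-conjugating enzyme, and SPEM1 (9.29), a protein needed to shed the cytoplasm, were also among the 20 highest. The others were TNP1, PRM1, PRM2, CELA3B, FAM187B, CYP4F8, ZNF475, RABIF, ADIG, SPATA32, CCDC200 and LRRC58, down to 8.76.

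These 20 genes were also raised when the comparison was with barcodes that carried at least 5 UMIs of round spermatid markers, the stage just before. This was fixed in part, because those barcodes are among the other barcodes by which the 20 genes were chosen. PRM1, PRM2 and TNP1 are also kept low there by the rule. The ratios are thus a description and no second test. There their median ratios over 7 libraries ran from 6.23 to 14.0, with 14.0 for TNP2, 11.3 for PRSS58 and 8.31 for PRSS37. The breeding library of adult animal 2 held 7 such barcodes and was left out.

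The lowest ratios to other barcodes were those of LYAR, a nucleolar protein (0.167), C5orf58 (0.174), DBF4, an activator of DNA replication (0.174), CLGN, a chaperone of the endoplasmic reticulum (0.178), MRPL34 of the mitochondrial ribosome (0.181), and the cyclins CCNA1 (0.181) and CCNB2 (0.182). SHCBP1L, C15H9orf57 and CCDC62 completed the lowest 10. CPM are relative to the total, and a few genes took a large part of it in members. Over the 7199 genes at 10 CPM or more in members, the median ratio was 0.583. Of 10442 genes at that level in members or in other barcodes, 934 (8.94%) were at least 2-fold higher and 4494 (43.0%) at least 2-fold lower.

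The gene lists differed in how their members compared with other barcodes. Counts here are of the genes at 10 CPM or more in members or in other barcodes. Median ratios are over the genes at 10 CPM or more in members only. They leave out genes that reach this level in other barcodes alone, which favours higher medians. Of 41 head and manchette shaping genes, 22 were at least 2-fold higher in members and 9 at least 2-fold lower, with a median ratio of 2.19. Nuclear packaging genes without PRM1, PRM2 and TNP1 had a median ratio of 1.22 over 8 genes (3 higher, 5 lower of 12). Fibrous sheath and outer dense fibre genes had 0.928 (8 higher, 8 lower of 29), acrosome genes 0.656 (6 higher, 14 lower of 35) and mitochondrial sheath genes 0.576 (4 higher, 10 lower of 20). Axoneme genes, which build the microtubule core of the tail, were lower as a group at 0.334, with 1 higher and 24 lower of 33. Ion channels and pumps of sperm stood at 0.387 (0 higher, 17 lower of 24), ribosomal proteins at 0.652 (0 higher, 13 lower of 69) and transcripts of the mitochondrial genome at 0.304 (0 higher, 5 lower of 6).

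Within the members, other genes changed along with the combined share of PRM1, PRM2 and TNP1. To compare, the 3 genes were left out of the totals, and each step up to 30% used the 7 libraries with at least 20 members in it. TNP2 rose from a mean of 7520 CPM at a share of 5% to 8% to 27700 CPM at 20% to 30%. SMCP rose from 3000 to 7620 CPM, ODF2 from 2220 to 5570 CPM, TPPP2 from 1790 to 5970 CPM and ACTL7A, an actin-like protein of the sperm head, from 883 to 2390 CPM. CAPZA3, an actin-capping subunit of the sperm head, went from 1400 to 3490 CPM. All 6 were highest at the highest of these steps, where the rule's own transcripts were most abundant by construction. A step at 30% or more held 403 members of 1 library, the breeding library of aged animal 2. There TNP2 was at 23600, CAPZA3 at 3040, SMCP at 8470, ODF2 at 7490, TPPP2 at 6960 and ACTL7A at 3280 CPM. Within that library TNP2 took 2.05% of all UMIs at 20% to 30% and 1.61% at 30% or more.

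HMGB4 peaked earlier. Its mean was 15900 CPM at 5% to 8%, 22500 CPM at 8% to 10%, 35100 CPM at 10% to 15% and 44800 CPM at 15% to 20%, and it was 32300 CPM at 20% to 30%.

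Another set of genes, likewise chosen after their values were seen, was lowest at 20% to 30% among the steps with 7 libraries. CREM, the transcription factor that drives many spermatid genes, went from 919 CPM at the lowest step to 210 CPM at 20% to 30%. FHL5, a coactivator of CREM, had 629, 812 and 899 CPM in the first 3 steps, then 464 and 183 CPM. CALR3, a chaperone of the testis, had 645, 822, 845, 562 and 253 CPM over the 5 steps. TEX29, a marker of round spermatids, went from 536 to 85.3 CPM, and FAM71A from 649 by way of 1140 to 127 CPM.

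**Figure D3:**
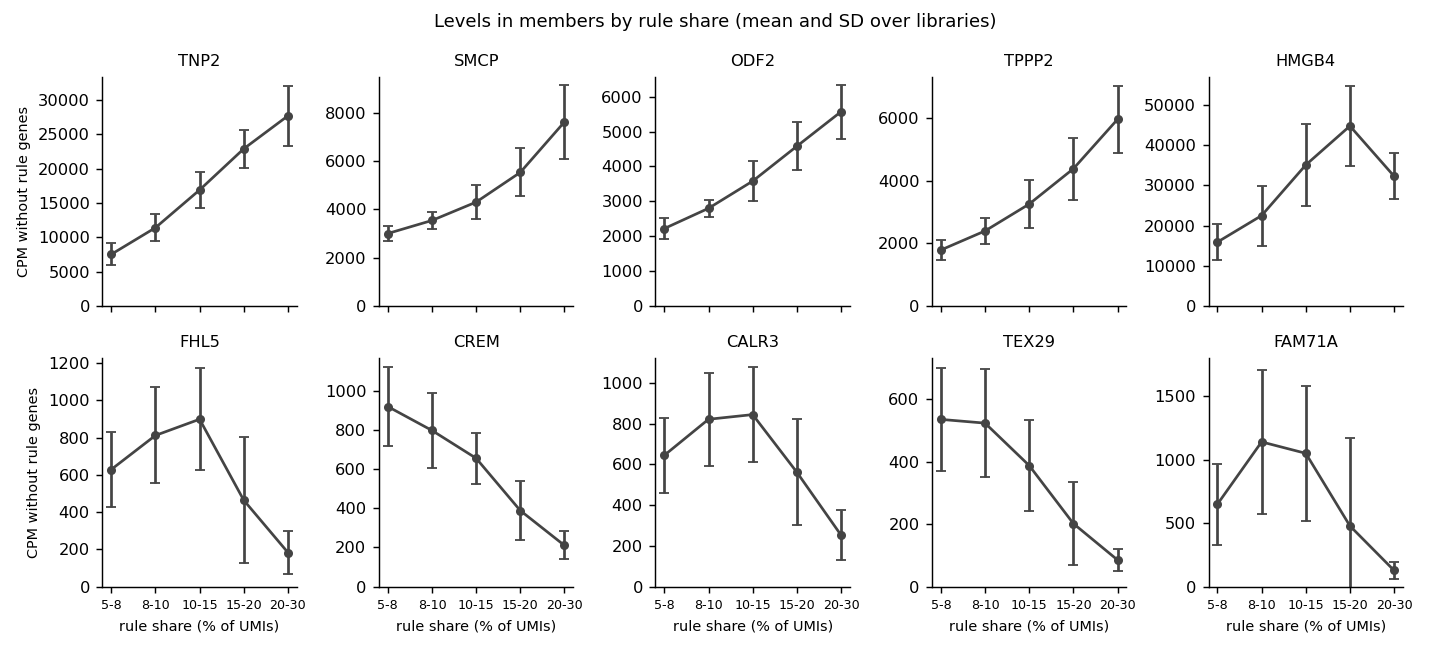
Mean level (CPM with PRM1, PRM2 and TNP1 left out of the totals, linear axes from 0) of 10 genes in members, by step of the combined PRM1, PRM2 and TNP1 share in percent of UMIs. Error bars are the SD over the 7 libraries with at least 20 members in the step (the breeding library of aged animal 1 enters up to 20% and that of adult animal 2 only above). TNP2, SMCP, ODF2 and TPPP2 rise up to the step of 20% to 30%, the last one shown. HMGB4 peaks at 15% to 20% with 44800 CPM, and FHL5, CREM, CALR3, TEX29 and FAM71A are lowest at 20% to 30%.

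Members with a share of 10% to 15% are called early here and those with 20% or more late. These are names for the share only, not for a measured time. In the 6 libraries with at least 20 of each, far more genes were lower late than higher. Among genes of at least 10 CPM, 1817 were higher and 6119 lower by the median log2 ratio, whose median over all genes was -0.47. Of the fixed list of regulators of the cAMP response and of spermiogenesis, 2 were higher and 14 lower (median -0.67), and of the round spermatid markers 0 were higher and 9 lower (median -1.32). Genes with a symbol and a mean of at least 100 CPM early or late were ranked, with PRM1, PRM2 and TNP1 left out. The largest falls were those of FAM71A (-3.61), DCDC2C (-3.58), CSTL1 (-3.31), FHL5 (-3.27), ANKRD9 (-3.23) and GMCL1 (-3.19), and CHD5, a chromatin remodeller that acts when histones are exchanged, stood at -2.85. All of these were lower late in each of the 6 libraries. The highest late among the ranked genes were THBS3 (1.05), ZNF475 (0.99), TRIM25 (0.97), IQCF5 (0.94), TPPP2 (0.93) and SPEM1 (0.93), higher in 6 of 6 libraries. Late members had fewer UMIs, with a median of 1628 to 2965 against 2440 to 4735 in the earlier ones, except in aged animal 1 in the non-breeding season (2478 against 2440).

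The share of members among filtered barcodes was higher in the breeding season in both adult animals. In adult animal 1 it was 2.78% (95% Wilson interval 2.47% to 3.14%, 257 of 9239) in the non-breeding season and 51.2% (4802 of 9383) in the breeding season. In adult animal 2 it was 17.8% (1828 of 10298) and 53.8% (44.8% to 62.6%, 63 of 117). The adult groups did not overlap: 10.3% ± 10.6 against 52.5% ± 1.89 (SD, n = 2 libraries each, from the same 2 animals). The difference was 3.81 in mean log2 odds. The exact permutation test, which does not pair the testes of an animal, gave p = 0.33 (two-sided), the smallest that 2 against 2 libraries allow. Wilson intervals here cover counting error only.

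Both aged animals also had the higher share in the breeding season, but the groups overlapped. Aged animal 1 went from 22.7% (2924 of 12869) to 31.8% (2355 of 7411), and aged animal 2 from 41.3% (5425 of 13128) to 56.3% (6076 of 10787). The means were 32.0% ± 13.2 and 44.1% ± 17.4 (n = 2 libraries each, from the same 2 animals). The difference was 0.77 in log2 odds with p = 0.667 by the exact permutation test, again without pairing. The direction in aged animal 1 depended on the threshold: at 2% of UMIs its share fell from 72.1% to 63.8% in the breeding season, while aged animal 2 had 49.3% and 73.7%. At 5%, per animal, the log2 odds rose by 5.2 and 2.43 in adults and by 0.66 and 0.87 in the aged animals.

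With both seasons of an animal summed, the share was 27.2% and 18.2% in the adults and 26.0% and 48.1% in the aged animals. The value of adult animal 2 rested on 10298 barcodes of the non-breeding and 117 of the breeding season. The difference of 0.99 in log2 odds had p = 0.667 by the exact permutation test. It depended on the threshold: at 2% the shares were 34.7% and 25.9% against 69.1% and 60.3%, a difference of 2.10 with p = 0.33 by the exact permutation test, again the smallest possible.

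Prepubertal testes held almost none of these cells. The non-breeding library of prepubertal animal 1 had 31 members among 10467 barcodes (0.296%, 0.209% to 0.42%). The other 3 prepubertal libraries had 0 of 11338, 0 of 7210 and 0 of 9903, counts that allow shares of up to 0.0265%, 0.0416% and 0.0303%.

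**Figure D4:**
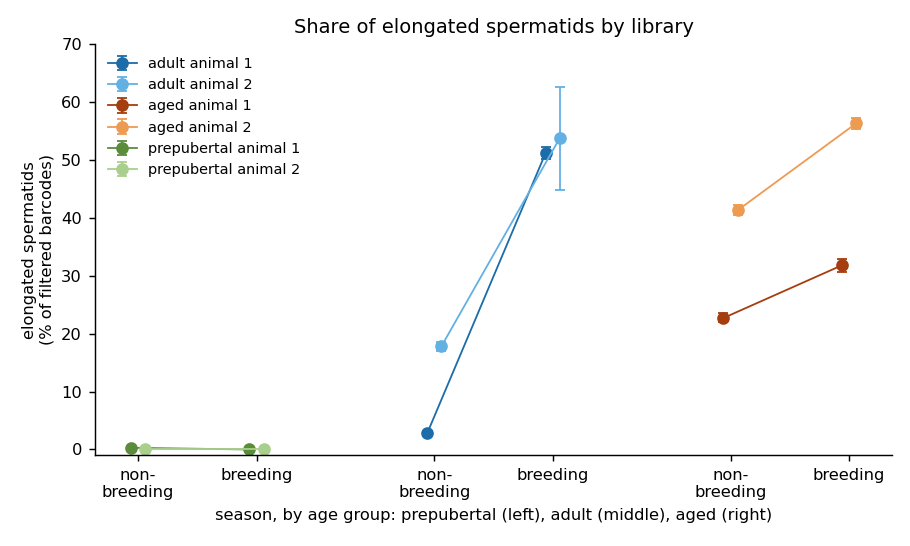
Elongated spermatids as a percentage of filtered barcodes in each of the 12 libraries, with 95% Wilson intervals that cover counting error only. Lines join the libraries of the same animal. Every adult and aged animal is higher in the breeding season, from 2.78% to 51.2% in adult animal 1, and the prepubertal libraries lie at 0% to 0.296%.

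Within elongated spermatids, no gene passed the threshold between seasons in adults. The UMIs of all members were summed per library and compared by edgeR (quasi-likelihood test, adjusted p of 0.05). Log2 changes are scaled between libraries for differences in composition (TMM). CPM, and with them the overlap of groups, are not, so the directions can differ. Of 16356 genes, 0 (0.0%) were called, 1117 (6.83%) had an unadjusted p under 0.05, and DESeq2 also called 0. With the animal as a block, which pairs the 2 testes of each animal, edgeR called 23 genes, 3 higher and 20 lower in the breeding season, and FOS and FOSB were among the lower ones.

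The genes nearest the threshold in adults were mostly high in 1 library. In the season tests the prepubertal library is a group of 1, so the filter on low counts admits a gene that reaches its limit in 1 library. Such genes, here and in the season tests below, may have entered through the library where they are high. TTR, a carrier of thyroid hormone, had 45.7 CPM in the non-breeding library of adult animal 2, against at most 0.154 CPM in the other 7. LCN15 was at 3.88 CPM in that library and at 0 in the other adult libraries, and CD300LG, a receptor of endothelial cells, at 72.6 CPM there and at 0.599 to 9.4 CPM in the other adult libraries. ALDH1L2, a mitochondrial folate enzyme, had 5.79 CPM in the breeding library of adult animal 1 and 0, 0.388 and 0 CPM in the others. A count of 0 in the breeding library of adult animal 2 allows up to 28.2 CPM.

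FOS differed in the same way in both adult animals. This immediate early gene, which is induced within minutes of a stimulus, had 80.8 and 64.1 CPM in the non-breeding libraries of adult animals 1 and 2 and 11.3 and 0 CPM in their breeding libraries. The groups did not overlap, and the log2 change was -2.46 ± 0.58 (SE) with an adjusted p of 0.647 in edgeR and of 0.0479 with the animal as a block. Without the 2 libraries that stood apart it was -2.29 ± 0.51 with an adjusted p of 0.557 in edgeR. Aged animals had 41.5 and 38.6 CPM in the non-breeding season and 12.5 and 16.9 CPM in the breeding season. In other barcodes the level of FOS was 368.0 and 234.0 CPM against 35.6 and 0 CPM in adults, and 85.5 and 106.0 against 19.2 and 19.9 CPM in aged animals, so it moved likewise outside the members. Of 22 immediate early genes tested, 0 were called and 16 had both adult breeding libraries below both non-breeding libraries, against 40.0% of all genes tested. In members of the small breeding library of adult animal 2 only 7 of the 24 in the files had any UMI. A count of 0 there allows up to 28.2 CPM, and how far low depth adds to the 16 and the 40.0% was not tested. The median log2 change of the 22 was -0.53, against -0.06 over all genes. In aged animals 12 of the 22 were below, against 19.1% of all genes tested, with a median of -0.62 against 0.02, and 1 was above, against 7.1%. Without the 2 libraries that stood apart the medians were -0.41 in adults and -0.65 in aged animals.

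Sertoli cell transcripts in the members were lower in the breeding season in adults. The 11 Sertoli markers summed to 2760 and 1250 CPM in members of the adult non-breeding libraries and to 497 and 310 CPM in those of the breeding libraries. For each of the 11 both breeding libraries lay below both non-breeding libraries (40.0% of all genes), with a median log2 change of -1.82 (-1.77 without the 2 libraries that stood apart), and 0 passed the threshold in edgeR or DESeq2. In members of the small library 8 of the 11 had any UMI. In other barcodes the same sum was 8760 and 3120 CPM against 1420 and 1540 CPM. CST9L, a cystatin of Sertoli cells, had 702.0 and 379.0 CPM in members against 107.0 and 84.6 CPM. In aged animals the sum was 922 and 266 CPM in members in the non-breeding season and 163 and 262 CPM in the breeding season, so it was lower in animal 1 and nearly level in animal 2. There 6 of the 11 markers lay below in both breeding libraries (19.1% of all genes), with a median of -0.92, or -0.35 without the 2 libraries. The part of Sertoli cell RNA in the season comparison was not tested.

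In aged animals 1 of 16356 genes (0.00611%) passed between seasons, and 607 (3.71%) had an unadjusted p under 0.05. ENSMMUG00000028701, a gene without a symbol, had 35.3 and 8.65 CPM in members of the non-breeding libraries of aged animals 1 and 2 and 0.772 and 1.12 CPM in the breeding libraries. It fell by 4.08 ± 0.67 on the log2 scale, with an adjusted p of 0.0442 in edgeR. Without the 2 libraries that stood apart it was -3.13 with an adjusted p of 1.0. Its level in other barcodes was 30.2 and 11.9 CPM against 2.13 and 2.93 CPM. With the animal as a block 12 genes were called, all lower in the breeding season.

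The other genes nearest the threshold in aged animals were high in the non-breeding library of animal 1, which is enough for the filter on low counts. HBE1, a beta-type globin, had 3370 CPM there and 37.7 CPM in that of aged animal 2, against 11.6 and 33.1 CPM in the breeding libraries. It changed by -5.73 ± 1.07 with an adjusted p of 0.0955 in edgeR, 0.0319 with the animal as a block and 1.0 without the 2 libraries that stood apart, where the change was -0.73. In other barcodes of that library HBE1 was at 3080 CPM. HBA, IGKC (the constant part of an immunoglobulin light chain), GIMAP7 (a lymphocyte GTPase) and SCGB3A2 had 886.0, 159.0, 32.2 and 48.2 CPM there and at most 15.3, 1.08, 0.927 and 0.309 CPM in the other 3 aged libraries. With the animal as a block IGKC and SCGB3A2 passed as well (adjusted p = 4.5e-09 and 5.33e-04 in edgeR), and both rested on that library.

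No gene passed the test of whether the season change differed between aged and adult animals. Of 16356 genes 0 (0.0%) were called by edgeR and 0 by DESeq2, and 292 (1.79%) had an unadjusted p under 0.05. Most genes of lowest p again rested on single libraries: ELF1, a transcription factor, had 874.0 CPM in the breeding library of adult animal 2 and 2.94 to 25.9 CPM in the other 7, HBE1 was high in the non-breeding library of aged animal 1, and among adults LCN15 and FNDC9 were at 3.88 CPM in the non-breeding library of animal 2 and at 0 in the other 3 libraries. PAGE2B was the exception, with 38.1 and 42.9 CPM in the adult non-breeding libraries, 5.39 and 0 CPM in the adult breeding libraries and 13.2 to 27.1 CPM in the aged ones. ELF1 was at 932.0 CPM in the other barcodes of that library, so this library is high throughout.

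Aged and adult animals differed in 5 of 15623 genes (0.032%), 1 higher (0.0064%) and 4 lower (0.0256%) in aged animals, with the members of both seasons summed per animal. In adults these sums came mostly from 1 season each: 4802 of the members of animal 1 were from the breeding season and 257 from the other, and of animal 2 these were 63 and 1828. With libraries as samples and both seasons weighted equally, 146 genes were called, with all 5 among them, but that fit counts the 2 testes of an animal as separate samples. Without adjustment, 1203 genes (7.7%) had a p under 0.05. The 4 genes with a symbol are known from other cells, and each is given with its level in other barcodes.

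AMH, the anti-Müllerian hormone of immature Sertoli cells (chr19:2095891-2099223), had 66.7 and 77.7 CPM in the members of adult animals 1 and 2 and 8.96 and 7.45 CPM in those of aged animals 1 and 2. It fell by 3.24 ± 0.27 on the log2 scale (adjusted p = 0.0238 in edgeR), and the groups did not overlap (aged below adult in 12.2% and above in 21.4% of all genes tested). In other barcodes AMH was at 1380, 275.0, 183.0 and 33.9 CPM in the 4 adult libraries and at 9.69 to 22.8 CPM in the aged ones, and members of prepubertal animal 1 had 599.0 CPM.

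PLA2G1B, a secreted phospholipase (chr11:120106381-120113029), had 45.5 and 64.6 CPM in adults against 10.4 and 7.77 CPM in aged animals. The log2 change was -2.70 ± 0.28 (adjusted p = 0.0487 in edgeR). In other barcodes it was likewise high in the larger adult libraries, at 636.0, 161.0 and 89.8 CPM, with 16.9 CPM in the small adult library and 2.79 to 20.3 CPM in the aged ones. AMH and PLA2G1B were thus lower in members than in the other barcodes of the larger adult libraries.

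GRIN2A, a subunit of the NMDA glutamate receptor (chr20:9764785-10195975), had a different standing. Its 67.7 and 62.9 CPM in adults against 10.8 and 7.09 CPM in aged animals gave a log2 change of -3.01 ± 0.30 (adjusted p = 0.0476 in edgeR). By library it was at 79.9, 63.5, 66.8 and 18.8 CPM in adult members and 28.7 to 50.8 CPM in the other adult barcodes, and at 6.2 to 15.9 CPM in aged members and 4.88 to 9.97 CPM in the other aged barcodes. In the 3 larger adult libraries GRIN2A was therefore higher in members than in the rest.

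CD3D, a part of the T cell receptor complex (chr14:111394605-111399738), was the gene that rose. It had 0.932 and 0.764 CPM in adults and 22.8 and 13.3 CPM in aged animals, a log2 change of 4.21 ± 0.43 (adjusted p = 0.0476 in edgeR). In the non-breeding library of aged animal 1 it was at 32.1 CPM in members and 34.6 CPM in other barcodes. In the other 3 aged libraries members had 13.2, 12.4 and 13.4 CPM, above the 1.94, 1.89 and 1.05 CPM of the other barcodes. In members it was above the other barcodes in 3 of the 4 aged libraries, while 10 T and natural killer cell markers together summed to 34.9 to 44.0 CPM in these 3 libraries. ENSMMUG00000043490, which has no symbol, had 21.9 and 25.0 CPM in adults and 0.51 and 0.463 CPM in aged animals (log2 change -5.66 ± 0.38, adjusted p = 0.00955 in edgeR). In other barcodes it was at 6.02, 60.8, 59.9 and 50.8 CPM in the adult libraries and at 0.547 to 1.94 CPM in the aged ones, so it moved likewise outside the members.

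These age calls were sensitive to who counted as a member. At a threshold of 10% of UMIs 0 genes were called and at 2% 1 was, DESeq2 called 136 with all 5 among them, and without the 2 libraries that stood apart 2 were called, of which ENSMMUG00000043490 was 1 of the 5. The changes of AMH, PLA2G1B, GRIN2A and CD3D without these libraries were -3.56, -3.15, -2.55 and 3.87, with adjusted p of 0.0653, 0.0968, 0.166 and 0.0653 in edgeR.

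**Figure D5:**
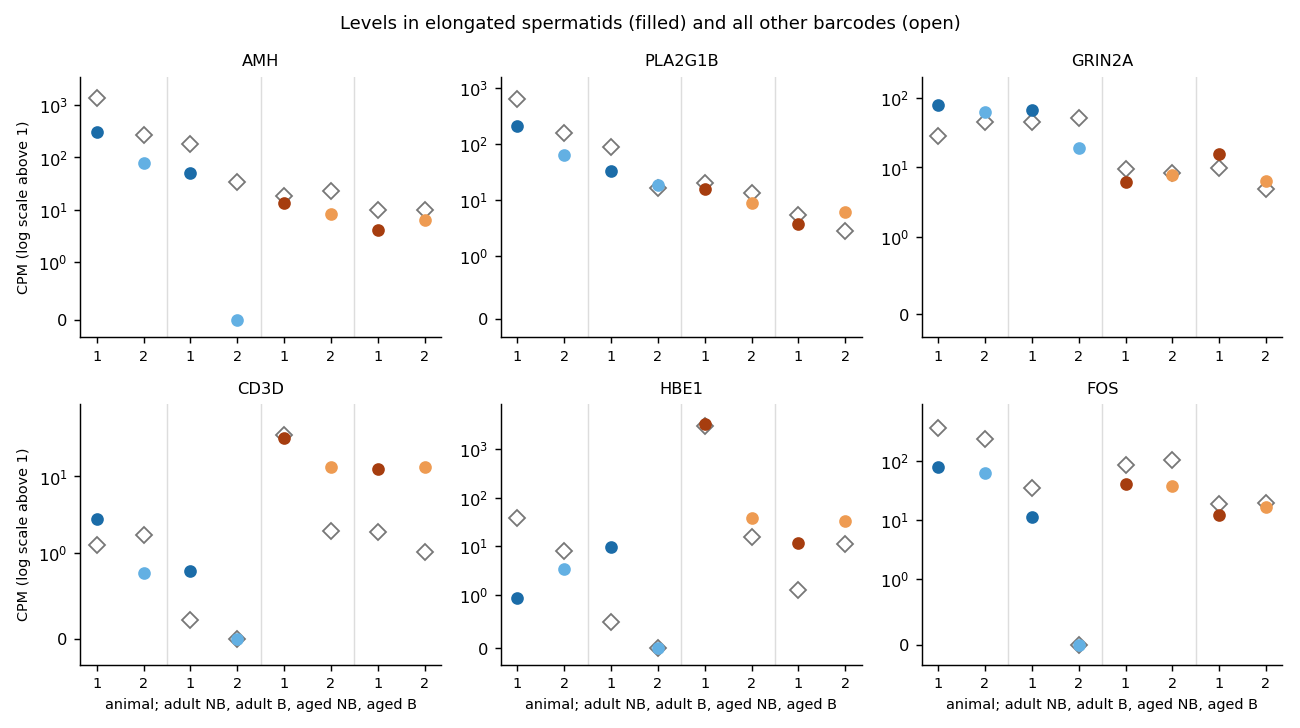
Level (CPM, log axis above 1 and linear below, 0 shown) of AMH, PLA2G1B, GRIN2A, CD3D, HBE1 and FOS in the members (filled circles, coloured by animal) and in all other barcodes (open diamonds) of the adult and aged libraries. NB is non-breeding and B breeding. AMH, PLA2G1B and FOS follow the level of the other barcodes, HBE1 stands at 3370 CPM in the non-breeding library of aged animal 1, and CD3D is at 12.4 to 32.1 CPM in aged members.

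Few genes passed in any of the 4 comparisons. Of 453 genes tested from 16 lists of spermatid functions and of general stress, ribosome and mitochondrial genes, edgeR without the block called 0 between seasons in adults, in aged animals or in the difference of the 2 changes. The 453 include PRM1, PRM2 and TNP1 and 9 genes of the mitochondrial genome, which the choice of members used. With the animal as a block edgeR called FOS and FOSB in adults, and with the rule at 10% it called FOS in aged animals. Between ages it called 0 of 449. DESeq2 called SLC2A3 between ages, and edgeR with no filter on low counts called PRSS55, SLC2A3, SOCS3 and ND5. Over all genes 0.0% were called between seasons in adults, 0.00611% in aged animals and 0.032% between ages, so 0 is what the shares over all genes give for lists of this size. Of body cell markers, 2 of 57 were called between ages, CD3D and AMH, against 0.032% of all genes, and 0 of 63 between seasons. DESeq2 called 13 of the 57 between ages, among 136 genes in all. With no filter on low counts, the list genes called between seasons were FOS, FOSB, COX3 and PRM2 in adults. In aged animals they were RPS4X, RPL10, ND2 and ATP6, and in the difference of the season changes PRM2 and COX3. PRM2 is a gene of the rule, and the mitochondrial limit of the cell filter used COX3, ND2, ATP6 and ND5. Calls of these genes support nothing.

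The medians of these 16 lists ran from -0.53 to 0.51 between seasons in adults, from -1.10 to 0.29 in aged animals and from -0.13 to 0.34 between ages. The lowest were those of immediate early genes in adults and of the mitochondrial genome in aged animals. The mitochondrial genome list had medians of -0.30 in adults and -1.10 in aged animals, and of -1.03 and -0.02 without the 2 libraries that stood apart. The mitochondrial limit of the cell filter used these genes, so their medians are a description and support nothing. Nuclear packaging genes without PRM1, PRM2 and TNP1 had a median log2 change of 0.01 between seasons in adults (13 tested) and 0.18 in aged animals, and 0.14 between ages (12 tested), against -0.06, 0.02 and -0.00 over all genes. Axoneme genes had 0.51, 0.20 and 0.34, and head and manchette genes 0.36, 0.24 and -0.10. Of 34 axoneme genes, 3 had both adult breeding libraries above both non-breeding libraries (6.56% of all genes) and 1 had both below (40.0%). Acrosome genes had 0.47, 0.29 and -0.01, and ribosomal proteins -0.22, -0.02 and 0.02. Without the 2 libraries the packaging genes had 0.34, 0.02 and 0.34, axoneme genes 0.59, 0.12 and 0.45, head and manchette genes 0.54, -0.09 and 0.08, acrosome genes 0.58, 0.01 and 0.13, and ribosomal proteins -0.12, 0.10 and -0.04. The medians of head and manchette and of acrosome genes between aged seasons were thus near 0 without these libraries.

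Single genes of the packaging and tail apparatus did not pass, and a few were 2 SE or more from 0. TNP2 had 16800 and 14900 CPM in the adult non-breeding libraries against 15400 and 16700 CPM in the breeding libraries, a log2 change of 0.29 ± 0.43. In aged animals it had 13100 and 19300 against 14000 and 15800 CPM (0.05 ± 0.43), and the change with age was -0.05 ± 0.41. SMCP had 3180 and 3880 against 4830 and 5610 CPM in adults, groups that did not overlap (breeding above in 6.56% of all genes), with a log2 change of 0.81 ± 0.42 that did not pass. Without the 2 libraries it was 0.82 ± 0.34. In aged animals SMCP had 4330 and 4370 against 3860 and 4020 CPM, groups that did not overlap either (breeding below in 19.1% of all genes). Its log2 change there, scaled by TMM as the CPM are not, was 0.07 ± 0.42. With age SMCP changed by -0.16 ± 0.34.

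GPX4, the selenoprotein of the sperm midpiece, had 1480 and 1400 CPM in the adult non-breeding libraries and 1510 and 4370 CPM in the breeding libraries. Its log2 change in adults was 1.23 ± 0.47, and 0.45 ± 0.34 without the 2 libraries that stood apart. SPATA18 had 290 and 268 against 315 and 771 CPM, with 1.14 ± 0.49 and 0.55 ± 0.37. Both values were raised by the small library.

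ODF2 changed by 0.53 ± 0.44 and 0.26 ± 0.43 between seasons in adults and aged animals, and by -0.12 ± 0.33 with age. PGK2, the sperm form of the glycolytic enzyme phosphoglycerate kinase, changed by 0.90 ± 0.45, 0.52 ± 0.44 and -0.27 ± 0.30. Without the 2 libraries the adult season changes of ODF2 and PGK2 were 0.68 ± 0.34 and 0.92 ± 0.37. CREM changed by 0.12 ± 0.46, 0.13 ± 0.46 and 0.07 ± 0.27. Of the 117 genes at 1000 CPM or more, 91.5% lay within 1 log2 unit between seasons in adults and 96.6% in aged animals, and between ages all 118 did. The median SE of their log2 changes was 0.45, 0.44 and 0.31, which limits the changes that 2 animals a group can show.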

How the data were processed

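Testis libraries made with the 10x Genomics platform were aligned by the authors with Cell Ranger 9.0.0 to Mmul_10, and the 12 filtered matrices they deposited hold raw UMI counts. Not given in the sources used here are the counting of introns and the transcript end read. The 48 labelled samples (8 per group) are not tied to matrices, so age, animal and season come from a sheet of the paper's supplementary material, where the youngest group is called pubertal (prepubertal in the labels). Of 26530 features 9920 had no symbol, of which 565 were named from a reference table, and 52 with a shared symbol kept their identifiers. Counts of multigene families and overlapping genes, such as globins and tubulins, are uncertain.

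Barcodes were filtered with the study's cell limits and members taken by the rule given above (Python 3.11.15, numpy 2.4.6, pandas 2.3.3, scipy 1.17.1). The members, gene lists and tests were chosen with earlier results of these data known. Removal of contaminated clusters was not applied. Scrublet, run through scanpy 1.11.5 (anndata 0.12.19), scored doublets in libraries of at least 500 barcodes, and calling the highest scores at 0.8% per 1000 barcodes (9414 barcodes, 2915 members) was used only as an alternative. Member counts were summed per library (seasons) or per animal (age), with at least 20 members. All 9 libraries with members, the prepubertal one as a group of its own, entered the season fit. With a group of 1 library, its low-count filter kept genes that reached the limit in 1 library. Genes past filterByExpr were tested by the quasi-likelihood test of edgeR 4.0.16 (limma 3.58.1, R 4.3.3) with TMM scaling and Benjamini-Hochberg adjustment over all genes tested, at 0.05. DESeq2 1.42.0 was an alternative. The fit was tested on simulated counts. Shares were compared by exact permutation tests of log2 odds, which between seasons did not pair the testes of an animal.

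The 2 libraries of an animal come from the same animal, and their deviations from the group means correlated over 16356 genes at 0.145 in adults and 0.229 in aged animals, so the fit with the animal as a block is given where it changes a call. Named genes were the rule's genes and SMCP in every library, the 20 highest mean levels, the 20 highest and 10 lowest ratios of members to other barcodes (at least 50 CPM in members or 200 CPM in others, 5 CPM added), up to 10 genes each way past the threshold or else the 5 of lowest p, and up to 4 tested genes per list. Some genes that this rule names are not reported here. Genes in the profiles along the share were chosen after their values were seen. Sequences and positions are from RefSeq for Mmul_10. No column of per-sample values was left unused.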

Additional observations from a re-analysis of the deposited data

Results flagged for a closer look

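The 31 members in the non-breeding library of prepubertal animal 1 were noted because no comparison set them against another group and they exceed what a count of 0 would allow (0.0287% of its 10467 barcodes). They did enter the season fit as a group of their own. PRM1 took 12.5% of their UMIs, PRM2 2.06%, TNP1 1.41%, TNP2 2.04% and SMCP 0.4%, and the ratio of PRM1 to PRM2 was 6.08. Their median was 2823 UMIs, and 20 of the 31 had at least 1500. The same library held 32 barcodes with at least 5 UMIs of round spermatid markers and 174 others with at least 10 UMIs of spermatocyte markers. Of the 31, 2 shared their barcode with the breeding library of aged animal 1. In the other barcodes of that library PRM1 took 0.0106% of UMIs, and none of its 450 barcodes with peritubular and smooth muscle markers passed the rule. The source of these members was not tested.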

How the results depend on the processing

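Differences in mean log2 odds of the shares kept their direction. Aged animal 1 was lower in the breeding season with the rule at 2% (63.8% against 72.1%), and without the breeding library of aged animal 2 the aged mean shares were 31.8% and 32.0%. The adult season difference in log2 odds was 3.55 to 4.44 over 4 alternatives and 2.36 to 5.27 without 1 library, the aged one 0.48 to 0.77 and 0.03 to 1.5, and that between ages 0.63 to 2.10 and 0.29 to 1.69. Counts of called genes were less stable, and their causes were not tested. In adults between seasons (0 called) they were 61 with no filter on low counts, 1 without predicted doublets, 23 with the animal as a block and 0 to 69 without 1 library. In aged animals (1 called) they were 3 with DESeq2, 0 with DESeq2 size factors in edgeR, 74 with no filter, 20 with the rule at 10%, 0 with the rule at 2%, 10 without predicted doublets, 12 with the block and 0 to 468 without 1 library (468 when the non-breeding library of aged animal 2 was left out). For the difference of the season changes (0 called) they were 23 with no filter, 1 with the block and 0 to 69 without 1 library. Between ages (5 called) they were 136 with DESeq2, 607 with no filter, 0 and 1 with the rule at 10% and 2%, 11 without predicted doublets, 146 with the mean of both seasons over libraries and 27 to 314 without 1 animal. Alternatives chosen after seeing the data gave, for aged seasons and ages, 0 and 3 with members of at least 1500 UMIs, 23 and 0 with the rule at 10% and its genes left out, and 0 and 2 without both libraries that stood apart. Leaving an arm with 1 library assumes that it varies like the other groups.

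Some genes that had not passed lost their change or changed sign: LCN15 in adults was 0.00 with adult animal 2 left out in the non-breeding season (-7.88 to 0.00 over libraries left out), ALDH1L2 -4.05 without the breeding library of adult animal 1 (-4.05 to 8.40), HBA in aged animals 0.44 with aged animal 1 left out in the non-breeding season (-5.71 to 0.44) and also without both libraries that stood apart, HBE1 in the difference of season changes 1.2 without the breeding library of adult animal 1 (-9.42 to 1.2), and ELF1 0.87 without both libraries. Over all single-gene values, 277 kept direction and call, 81 passed only under the alternative, 27 lost the call and 6 changed sign or came to 0.00. DESeq2 size factors moved the median log2 change of all genes from -0.06 to -0.28 in adults and from 0.02 to -0.14 in aged animals. The small breeding library of adult animal 2 (106381 member UMIs) limits what adult season changes can be seen at low levels.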

Other observations

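Levels of body cell transcripts differed between shallow and deep members in several libraries. In the breeding library of adult animal 1 the 568 members with under 1500 UMIs had 1990 CPM of Leydig and interstitial markers and 1430 CPM of Sertoli markers, against 446.0 and 464.0 CPM in the 4234 deeper ones. In the breeding library of aged animal 2 these were 792.0 and 572.0 CPM in 2284 shallow members and 331.0 and 195.0 CPM in 3792 deeper ones. The red blood cell markers in the non-breeding library of aged animal 1 differed less, with 5200 CPM in 448 shallow and 4230 CPM in 2476 deeper members. In the small breeding library of adult animal 2 the Sertoli and Leydig markers were lower in shallow members, at 208.0 and 237.0 CPM against 358.0 and 289.0 CPM, and in the non-breeding library of adult animal 1 the Leydig markers were nearly level, at 657.0 and 671.0 CPM.

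PDGFRA, a growth factor receptor of interstitial cells, and ACTG2, a smooth muscle actin, changed less in members from library to library than CST9L did. The other markers of their lists were not all as steady. Log2 changes between adult seasons ran from -1.91 to 1.83 over 12 Leydig and interstitial markers. Over 8 peritubular and smooth muscle markers they ran from -0.52 to 2.38. PDGFRA had 197.0 to 409.0 CPM and ACTG2 103.0 to 221.0 CPM over the 8 adult and aged libraries, while the Sertoli marker CST9L ranged from 31.2 to 702.0 CPM. COX3 of the mitochondrial genome was at 2130 CPM in the breeding library of adult animal 2 against 38.0 to 460.0 CPM in the other 7.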
